A study of Homo sapiens with 10 samples.

Results

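The genes of chromosome 18q from the start of DTNA to the end of the long arm were compared between 4 veliparib-resistant clones and the parental cells. Members were table rows that lay only on chromosome 18 and began at or beyond the start of DTNA. BCL2, PMAIP1, NARS and symbols beginning with RPL, RPS, ATP5, CDH or MRP were left out, which removed 9 of 206 rows. The remaining 197 members were part of a table of 25370 genes. The stretch was picked because its genes were lower in the clones, so the differences from parental cells given for its members are a description and not a test. The expression filter kept 126 members for the fit, and the other 71 had at most 68 reads each in all 10 libraries together.

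The cells were of PEO1, an established line of high grade serous ovarian carcinoma. The line is BRCA2-deficient and so impaired in homologous recombination, which mends broken DNA. The clones ABTr1, ABTr2, ABTr3 and ABTr4 were derived from PEO1, kept in 40 µM veliparib, an inhibitor of PARP enzymes, for 6 months and taken off it 4 to 5 days before RNA was collected. Parental PEO1 is labelled WT in genotype and parental in treatment, with no drug named, and both kinds of cells were grown in the same medium with serum and insulin. The sample descriptions number the clones otherwise than the sample titles, and the titles are followed here. Polyadenylated RNA was sequenced in 2 libraries of each clone and 2 of parental PEO1, 10 in all. Each resistant group is 1 clone of 1 line, so the libraries describe these clones and not resistant cells in general.

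The long arm of chromosome 18 carries 3 genes of the pathway of transforming growth factor beta. SMAD2 is phosphorylated by the activated receptor, joins the common partner SMAD4 and enters the nucleus to regulate target genes, while SMAD7 blocks the receptor and is itself induced by the pathway. SMAD4 is a tumour suppressor best known from pancreatic and colorectal cancer. The arm also holds TCF4, an E protein that pairs with other helix-loop-helix factors, a cluster of serpin genes, and many unrelated genes of transport, metabolism and RNA handling.

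Total counts per library were 20640602 to 55488566, and both extremes were libraries of ABTr2. The label of epithelial cells was checked with EPCAM, KRT8, KRT18 and KRT19, whose summed level was 1839 to 2377 CPM (counts per 1000000 reads of a TMM-scaled library) over the clone libraries and 6020 and 9046 CPM in parental PEO1. PAX8, a factor of the serous lineage, was at 95.2 to 200.1 CPM in the clones and 92.6 and 156 CPM in parental PEO1. WT1, the other serous marker, was at 0.145 to 3.21 CPM in the clones and 2.63 and 13.9 CPM in parental PEO1. The fibroblast markers summed to at most 0.0363 CPM in any library, with DCN, LUM and COL3A1 at 0 reads, and the leukocyte marker PTPRC was at most at 0.236 CPM. The leukocyte markers summed to 1.96 to 17.5 CPM in the clones and 8.46 and 18.5 CPM in parental PEO1, nearly all of it CD14. The endothelial markers summed to 0.968 to 15.3 CPM in the clones and 15.2 and 62.3 CPM in parental PEO1, where most of it was CDH5. All 4 epithelial markers were thus lower in every clone library than in either parental library, as were most members below, and their part in the results was not tested.

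The promoter sequences of SMAD4, of MYO5B, the member with the lowest log2 fold change among those of at least 5 CPM, and of SIGLEC15, the member with the highest, are shown because the results for the SMADs and for both ends of the range turn on these genes. Each is the 250 bases before the gene's start, 5′ to 3′ on the gene's strand, from RefSeq on GRCh38.p14, with GC boxes (GGGCGG, or CCGCCC on the other strand) in capitals. SMAD4 lies at chr18:51029963-51030212 on the plus strand, MYO5B at chr18:50195148-50195397 on the minus strand and SIGLEC15 at chr18:45825425-45825674 on the plus strand.
SMAD4: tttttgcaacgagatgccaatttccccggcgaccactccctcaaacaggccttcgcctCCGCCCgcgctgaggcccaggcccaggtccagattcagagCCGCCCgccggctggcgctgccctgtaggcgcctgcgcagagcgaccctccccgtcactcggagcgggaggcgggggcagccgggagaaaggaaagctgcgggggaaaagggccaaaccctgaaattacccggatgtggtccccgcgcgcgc
MYO5B: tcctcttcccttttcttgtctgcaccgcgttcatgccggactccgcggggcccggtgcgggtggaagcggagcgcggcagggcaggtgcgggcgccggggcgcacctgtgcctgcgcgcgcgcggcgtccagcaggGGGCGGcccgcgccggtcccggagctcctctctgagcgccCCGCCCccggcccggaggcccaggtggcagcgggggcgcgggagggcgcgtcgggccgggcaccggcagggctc
SIGLEC15: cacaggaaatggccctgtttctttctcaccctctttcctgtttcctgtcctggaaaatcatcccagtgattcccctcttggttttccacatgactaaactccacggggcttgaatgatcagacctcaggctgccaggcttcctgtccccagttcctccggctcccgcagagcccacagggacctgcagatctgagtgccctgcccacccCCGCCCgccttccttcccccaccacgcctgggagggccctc
SMAD4 has 25 CpG dinucleotides and 2 GC boxes in its window, MYO5B has 37 CpG and 2 GC boxes, and SIGLEC15 has 6 CpG and 1 GC box. The guanine and cytosine content is 68.4% for SMAD4 and 80.0% for MYO5B. Over the 97 tested members with a promoter in the RefSeq table the median was 22 CpG, against 11 over all 27305 promoters. A GC box was present in 73.8% of the 80 matched members with a log2 fold change below 0, in 41.2% of the 17 above 0, and in 42.3% of all promoters. With at least 5 CPM it was in 74.6% of 71 members below 0 and in 57.1% of 7 above 0. Tested members are expressed genes and the table of all promoters includes silent ones, so the comparisons with all promoters mix expression with position. Most matched members above 0 had less than 5 CPM and most below 0 had more, so the split by direction mixes with expression as well. It also uses the contrast on which the stretch was chosen. A match of these letters is a description of the sequence and says nothing of a bound factor.

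Members were lower in the clones along almost the whole stretch. The summed level of all 197 members was 2397 to 2743 CPM over the 8 clone libraries and 5837 and 6254 CPM in parental PEO1. They made up 0.240% to 0.283% of all counts in the clones and 0.497% and 0.566% in parental PEO1. The clone libraries did not overlap the parental ones in either measure. In RNA from bulk cultures, fewer cells of a type and less RNA per cell cannot be told apart.

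The median log2 fold change of the 126 tested members, mean of 4 clones over parental, was -0.95, which is 1.93-fold lower, against 0.024 for the 16364 other tested genes. The interquartile part of the members lay between -1.59 and -0.37, and the range was -4.44 to 5.64. Of the members, 82.5% were below 0, against 48.4% of the other genes. The 88 members with a mean of at least 5 CPM had a median of -1.14, and 81 of them were below 0. The 38 less expressed ones had a median of -0.27 and 60.5% below 0.

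The stretch was picked as lower in all clones, so the following counts describe that choice and do not test it. Not all members were lower. The log2 fold change was below 0 in each of the 4 clones for 93 of 126 members, where 31.8% of all genes did this. It was above 0 in each clone for 18 members, where 34.9% of all genes did this. All 8 clone libraries lay below both parental libraries for 71 members, where the share over all tested genes was 12.5%, and above both for 6, where it was 14.5%. These 6 were SLC14A1, SIGLEC15, DCC, FBXO15, LINC00908 and LOC100505776. They were listed after their values were seen.

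At an edgeR adjusted p under 0.05 over all 16490 genes, 64 members were called lower in the mean of the clones, where 8.79% of all genes were. SIGLEC15 and DCC were called higher, where 7.17% of all genes were. Called higher in each of the 4 clones was 1 member, where 2.08% of all genes were. In single clones, 46 members were called lower in ABTr1 (all genes 4.29%), 39 in ABTr2 (2.81%), 42 in ABTr3 (3.89%) and 43 in ABTr4 (5.25%). Lower in each of the 4 were 29 members, where 2.10% of all genes were. Called higher in single clones were 3 members in ABTr1 (all genes 5.48%), 2 in ABTr2 (3.31%), 1 in ABTr3 (3.48%) and 1 in ABTr4 (4.46%). With only the 2 compared groups in the fit, the lower calls were 25 in ABTr1 (1.88%), 1 in ABTr2 (0.345%), 18 in ABTr3 (2.46%) and 15 in ABTr4 (1.83%). Because the stretch was chosen on this contrast, nothing is read from these counts. With the replicate number as a block, ABTr2 had 67 members called lower (all genes 10.8%), ABTr4 had 65 (13.9%), the members called in each clone were 49 (6.20%) and those higher in the mean were 6 (16.3%). With 1 library left out, the fewest members were called for the mean without PEO1 replicate 2. For each single clone the fewest were called without a library of that clone. Such fits leave 1 library in a group, and the shares of all genes for them are not given here. The median log2 fold change of the members was -1.02 to -0.90 over these fits.

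**Figure D1:**
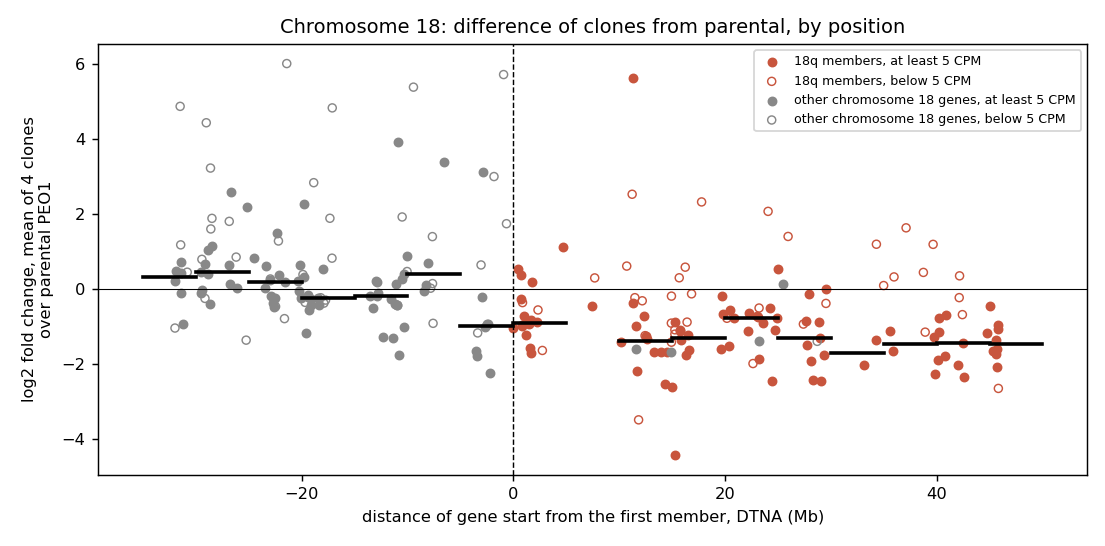
Log2 fold change of the mean of 4 clones over parental PEO1 (vertical axis) for each tested gene of chromosome 18, against the distance of its start from the start of DTNA in Mb (horizontal axis, dashed line at the limit). Red points are members and grey points are other genes of the chromosome, those right of the line being genes left out by name. Filled points have at least 5 CPM, open ones less. Black bars are medians of filled points in windows of 5 Mb that hold more than 1 of them, and those right of the line are all below 0.

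The plot by position shows where on the chromosome the lower levels lie. In windows of 5 Mb counted from the start of DTNA, the median of members with at least 5 CPM was -0.90 in the window of 0 to 5 Mb and -0.44 in the window of 5 to 10 Mb, which held 1 such member. It was -1.38 at 10 to 15 Mb, -1.30 at 15 to 20 Mb, -0.77 at 20 to 25 Mb and -1.31 at 25 to 30 Mb. It was -1.70 at 30 to 35 Mb, over 2 members, and -1.47, -1.45 and -1.47 in the 3 windows from there to the end. No window had a median above 0.

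Lower levels were also found before the limit of the rule. Just inside it lay DTNA (dystrobrevin, a dystrophin-associated protein) at -1.05 (SE 0.29), MAPRE2 at 0.55 (SE 0.32) and ZNF397 at -0.27 (SE 0.25). Just outside lay NOL4 at 1.75 (SE 0.88), ASXL3 at 5.73 (SE 1.98) and KLHL14 at 3.00 (SE 2.11). Averaged over all 4 clones they were at most at 2.30 CPM, and in parental PEO1 at most at 0.20 CPM. KLHL14 differed by clone, at 6.42 in ABTr1, 5.97 in ABTr2, -1.12 in ABTr3 and 0.74 in ABTr4. In the 5 Mb before the limit 7 of 8 genes with at least 5 CPM were below 0, with a median of -0.98. In the window of 5 Mb before that the median was 0.40, over 4 genes. Of the chromosomes and parts with at least 100 tested genes, the part of chromosome 18 from the limit on, with the genes left out by name included, had the lowest median (-0.98, 131 genes), chromosome 5 the next (-0.35, 778 genes) and chromosome 16 the highest (0.36, 729 genes).

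**Figure D2:**
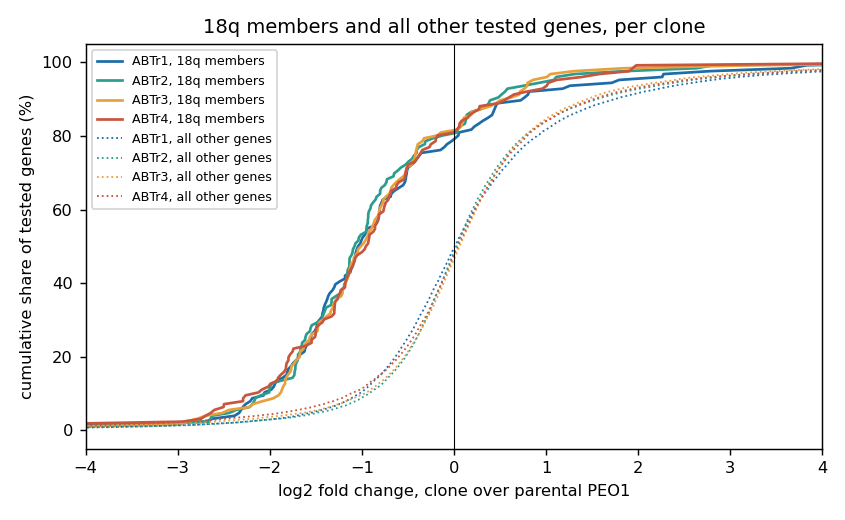
Cumulative share of tested genes in percent (vertical axis) by log2 fold change of each clone over parental PEO1 (horizontal axis, shown from -4 to 4). Solid lines are the 126 members and dotted lines all 16364 other genes, 1 color per clone. The 4 solid lines lie left of the 4 dotted ones over most of the range, with medians of -1.07 to -0.94 against 0.010 to 0.063.

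The distributions per clone were close to each other. The median of the members was -1.03 in ABTr1, -1.07 in ABTr2, -0.996 in ABTr3 and -0.94 in ABTr4. Members below 0 were 99 in ABTr1 (all genes 49.7%), 101 in ABTr2 (48.6%), 102 in ABTr3 (46.7%) and 102 in ABTr4 (47.8%). The medians of the other genes in the same clones were 0.010, 0.028, 0.063 and 0.043. All 4 contrasts use the same parental libraries, so they are not independent of each other.

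The 3 SMAD genes were lower in each clone, and for all of them the 8 clone libraries lay below both parental ones. SMAD2 (hg19 chromosome 18, 45359466 to 45457517, minus strand), the receptor-activated member, was at 57.2 and 55.3 CPM in ABTr1, 49 and 56.2 in ABTr2, 40.6 and 58.5 in ABTr3, 46 and 51.9 in ABTr4, against 151 and 178 CPM in parental PEO1. Its means were 51.8 ± 3.34 CPM in the clones and 165 ± 18.9 CPM in parental PEO1 (SD over 4 clone means and over 2 libraries, here and below), a log2 fold change of -1.67 (SE 0.18). SMAD4 (hg19 chromosome 18, 48556583 to 48611411, plus strand), the common partner, was at 55.9 and 64 CPM in ABTr1, 58.6 and 63.1 in ABTr2, 47.1 and 62.4 in ABTr3, 59.7 and 54.2 in ABTr4, against 113 and 159 CPM in parental PEO1. The clones were closer to each other than the parental libraries were, and the log2 fold change was -1.23 (SE 0.19). SMAD7 (hg19 chromosome 18, 46446223 to 46477081, minus strand), the inhibitor, was at 9.02 and 6.95 CPM in ABTr1, 8.01 and 7.87 in ABTr2, 6.38 and 4.34 in ABTr3, 3.03 and 6.59 in ABTr4, against 30.4 and 43.6 CPM in parental PEO1. Its log2 fold change was -2.54 (SE 0.28), 5.82-fold lower, and by clone it was -2.21 in ABTr1, -2.22 in ABTr2, -2.78 in ABTr3 and -2.95 in ABTr4.

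**Figure D3:**
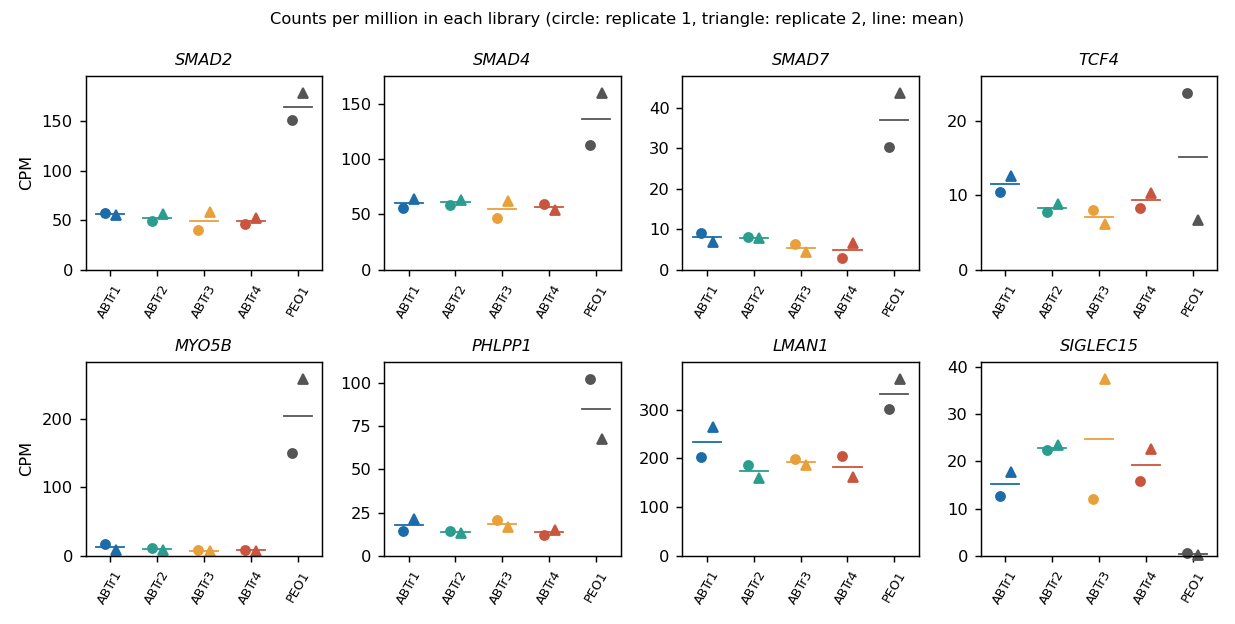
CPM (vertical axes, from 0) of 8 members in each library of the 4 clones and of parental PEO1 (horizontal axes). Circles are replicate 1, triangles replicate 2, and lines the mean of the 2 libraries. SMAD2, SMAD4, SMAD7, MYO5B, PHLPP1 and LMAN1 were lower in all 8 clone libraries, SIGLEC15 was higher in all 8, and for TCF4 1 parental library was above all clone libraries and the other within their range.

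Among the transcription factors, 8 of 15 tested members were called lower and none higher (all genes 8.79% and 7.17%), with a median log2 fold change of -0.95. With 1 library left out, 5 were called lower without either ABTr1 library, ABTr3 replicate 2, ABTr4 replicate 2 or PEO1 replicate 1, and 4 without PEO1 replicate 2. TCF4 (hg19 chromosome 18, 52889562 to 53303224, minus strand) was at 10.4 and 12.6 CPM in ABTr1, 7.72 and 8.79 in ABTr2, 8.04 and 6.20 in ABTr3, 8.30 and 10.3 in ABTr4, against 23.7 and 6.62 CPM in parental PEO1. The parental libraries differed more from each other than the clones did, and 1 of them lay below most clone libraries. Its log2 fold change was -0.77 (SE 0.39). Leaving out PEO1 replicate 1 gave 0.39, and leaving out PEO1 replicate 2 gave -1.41. ZNF532, a zinc finger protein, had the lowest value of the group at -2.44 (SE 0.17), with 27.5 to 45.5 CPM over the 8 clone libraries and 158 and 206 CPM in parental PEO1. ZNF24, another zinc finger protein, was at -0.997 (SE 0.20) and ADNP2, a homeobox and zinc finger protein, at -1.08 (SE 0.30). ZNF271, at -0.95 (SE 0.16), is annotated as a transcribed pseudogene. It is counted in the group and among its lower calls, and its value is the group median. ADNP2 had 34.5 to 64.7 CPM over the 8 clone libraries and 76.3 and 132 CPM in parental PEO1, with no overlap. ZSCAN30 was the member of the group above 0, at 0.38 (SE 0.36), and its groups overlapped.

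Of the 14 tested members grouped under chromatin, transcription and RNA, 10 were called lower and none higher (all genes 8.79% and 7.17%), with a median of -1.12. The group as listed also holds HAUS1, a spindle protein, and POLI, a DNA polymerase, which do not belong to these functions. HAUS1 is among the lower calls. MBD2, a reader of methylated DNA, was at 40.1 to 65 CPM over the 8 clone libraries and 133 and 187 CPM in parental PEO1, with a log2 fold change of -1.60 (SE 0.20). MEX3C, an RNA-binding ubiquitin ligase, was at -1.63 (SE 0.16) and TXNL4A, a component of the spliceosome, at -1.59 (SE 0.19). ELP2, a subunit of Elongator, was at -0.83 (SE 0.17), and its value per clone was -0.95 in ABTr1, -0.95 in ABTr2, -1.05 in ABTr3 and -0.38 in ABTr4. RBFA, a factor of mitochondrial ribosome assembly, was at -2.08 (SE 0.32), with 6 to 15.4 CPM over the 8 clone libraries and 32.8 and 62.4 CPM in parental PEO1. The groups of libraries did not overlap for MBD2, MEX3C, TXNL4A, ELP2 or RBFA.

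Of the members grouped under membrane traffic and secretion, 15 of 18 tested ones were called lower and none higher (all genes 8.79% and 7.17%), with a median of -1.27. The group as listed also holds SLC39A6, KDSR and PIGN, which do not belong to these functions. SLC39A6 is among the lower calls. Without PEO1 replicate 2 fewer were called lower, and the median was -1.18. MYO5B (hg19 chromosome 18, 47349156 to 47721451, minus strand), a myosin motor that carries recycling endosomes to the apical membrane of epithelial cells, was at 17.1 and 8.89 CPM in ABTr1, 11 and 8.99 in ABTr2, 8.90 and 6.47 in ABTr3, 8.82 and 6.62 in ABTr4, against 149 and 257 CPM in parental PEO1. No clone library came near either parental one. The log2 fold change was -4.44 (SE 0.26), 21.7-fold lower, the lowest among members with at least 5 CPM, and by clone it was -3.97 in ABTr1, -4.34 in ABTr2, -4.72 in ABTr3 and -4.72 in ABTr4. MYO5B shares exon positions with SNHG22, and reads of the pair could not be told apart by strand. ATP8B1, a phospholipid flippase of the apical membrane, was at -1.87 (SE 0.26), VPS4B, an ATPase of the ESCRT machinery, at -1.31 (SE 0.18) and SLC39A6, a zinc importer, at -1.58 (SE 0.20). LMAN1, a cargo receptor between endoplasmic reticulum and Golgi, took the most counts of all members and was at 160.2 to 264 CPM over the 8 clone libraries and 301 and 362 CPM in parental PEO1. Its log2 fold change was -0.77 (SE 0.19), a smaller difference than in MYO5B, and the groups did not overlap.

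Of the metabolic and mitochondrial genes, 10 of 13 tested members were called lower and none higher (all genes 8.79% and 7.17%), with a median of -1.29. Fewer were called lower without either PEO1 library, and the median was -1.32 without replicate 1 and -1.15 without replicate 2. With the replicate block 1 was called higher (all genes 16.3%). LIPG, endothelial lipase, had the lowest value at -2.61 (SE 0.46), but its parental libraries were at 26.5 and 11.0 CPM and ABTr1 stood below the other clones, as described further on. CYB5A, cytochrome b5, was at 4.38 to 12 CPM over the 8 clone libraries and 31.6 and 41.5 CPM in parental PEO1, a log2 fold change of -2.28 (SE 0.30). CNDP2, a cytosolic dipeptidase, was at -1.89 (SE 0.21), ME2, the mitochondrial malic enzyme, at -1.77 (SE 0.29) and TXNL1, a thioredoxin-like protein, at -1.13 (SE 0.24). ACAA2, a thiolase of mitochondrial fatty acid oxidation, was at 40.4 to 70 CPM over the 8 clone libraries and 78.1 and 118 CPM in parental PEO1, a log2 fold change of -0.87 (SE 0.27). ACAA2 was called lower with the replicate block (-0.91) and not without it. Per length, TXNL1 was the most abundant member at 45.6 RPKM in the clones and 98.6 RPKM in parental PEO1 (CPM per kilobase of the deposited gene length), followed in parental PEO1 by IER3IP1 at 31.3 RPKM in the clones and 78.3 RPKM in parental PEO1.

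Of 12 tested signalling and cell death genes, 2 were called lower and 1 higher (all genes 8.79% and 7.17%), with a median of -0.34. With the replicate block 5 were called lower and 2 higher (all genes 18.2% and 16.3%). The call higher was lost without ABTr1 replicate 1 or either PEO1 library. With 1 library left out the median was -0.75 to -0.32. PHLPP1, a phosphatase that removes an activating phosphate from AKT kinases, was at 14.3 and 21.1 CPM in ABTr1, 14.2 and 13.1 in ABTr2, 20.5 and 16.8 in ABTr3, 12 and 15.2 in ABTr4, against 102 and 67.5 CPM in parental PEO1. The clone libraries all lay far below the parental ones, and the log2 fold change was -2.43 (SE 0.21). SOCS6, an adaptor that limits receptor kinase signalling, was at 23.3 to 41.1 CPM over the 8 clone libraries and 94.8 and 117 CPM in parental PEO1, a log2 fold change of -1.66 (SE 0.24). PIK3C3, the lipid kinase of endosomes and autophagy, was at 43.9 to 70.3 CPM over the 8 clone libraries and 71.1 and 81.7 CPM in parental PEO1, so the groups came close to touching, with a log2 fold change of -0.44 (SE 0.25). NEDD4L, a ubiquitin ligase, and MALT1, a protease of NF-kB signalling, overlapped between groups, with log2 fold changes of -0.90 (SE 0.32) and -0.52 (SE 0.29). NEDD4L was lower in every clone library than in the parental library of the same replicate number. With the replicate block NEDD4L (-0.88) and PIK3C3 (-0.47) were called lower, and MALT1 was not. MALT1 was at 0.030 without PEO1 replicate 1. The member called higher was DCC, a netrin receptor, at 2.33 (SE 0.56).

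**Figure D4:**
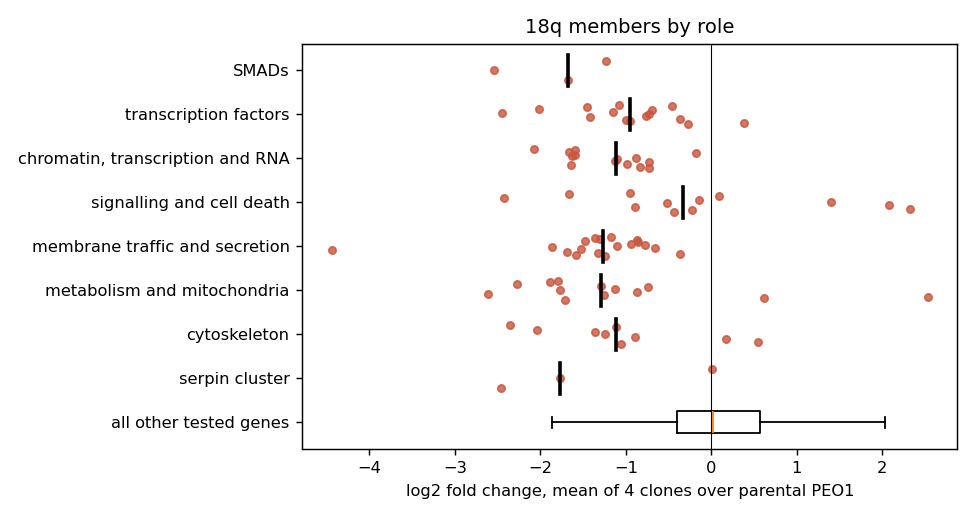
Log2 fold change of the mean of 4 clones over parental PEO1 (horizontal axis) of tested members by role (vertical axis). Each red point is 1 member, black bars are group medians, and the box at the bottom gives the median, quartiles and whiskers without outlying points of all 16364 other genes. The group medians lie between -1.77 for the serpin cluster, which has 3 points and lies above 0 without PEO1 replicate 1 or ABTr4 replicate 2, and -0.34 for signalling and cell death, and the median of the other genes is 0.024.

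Of 9 tested members grouped under cytoskeleton, 6 were called lower and none higher (all genes 8.79% and 7.17%), with a median of -1.12. This grouping also counts DSEL, at -2.04 (SE 0.47), whose product is not a part of the cytoskeleton. Fewer were called lower in every fit with 1 library left out, the fewest without PEO1 replicate 2. The median was -1.20 to -1.03 over these fits. MBP, known for myelin basic protein and also the source of transcripts in other cells, was at 13.3 to 38.7 CPM over the 8 clone libraries and 123 and 126 CPM in parental PEO1, a log2 fold change of -2.36 (SE 0.24). TPGS2, a subunit of the tubulin polyglutamylase, was at -0.89 (SE 0.16) and near the same in each clone, at -0.82 in ABTr1, -0.92 in ABTr2, -0.88 in ABTr3 and -0.93 in ABTr4. MAPRE2, which binds growing microtubule ends, was at 25.3 to 42.4 CPM over the 8 clone libraries and 13 and 29.6 CPM in parental PEO1, and its groups overlapped. It was called higher with the replicate block (0.61) and not without it. FHOD3, a formin that assembles actin, was at 31 and 19.1 CPM in ABTr1, 38.2 and 8.26 in ABTr2, 29.4 and 19.5 in ABTr3, 35.3 and 13 in ABTr4, against 35 and 7.82 CPM in parental PEO1. Within every group replicate 1 was above replicate 2, and the groups overlapped.

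Of the 10 members of the serpin cluster only SERPINB5, SERPINB7 and SERPINB8 had enough reads to be tested. SERPINB5, the epithelial serpin maspin, was at 22.2 and 9.11 CPM in ABTr1, 19.4 and 22.9 in ABTr2, 10.2 and 10.6 in ABTr3, 9.47 and 13.7 in ABTr4, against 106 and 49.4 CPM in parental PEO1. It was lower in all 8 clone libraries, with a log2 fold change of -2.46 (SE 0.33). SERPINB7 had 5.72 to 23.6 CPM over the 8 clone libraries and 10.4 and 75.3 CPM in parental PEO1, and the parental libraries lay above and within the clones' range. Its log2 fold change was -1.77 (SE 0.52), but 0.24 without PEO1 replicate 1, and it was called lower with the replicate block (-1.47) and not without it. SERPINB7 is also the median of the 3 tested serpin genes, and that median was 0.38 over 4 tested genes without PEO1 replicate 1 and 0.12 over 5 without ABTr4 replicate 2. SERPINB8 was at 11.8 to 32.6 CPM over the 8 clone libraries and 14.7 and 28.1 CPM in parental PEO1, a log2 fold change of 0.013 (SE 0.42), and its sign depended on which library was left out.

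Some members were not lower. SIGLEC15 (hg19 chromosome 18, 43405545 to 43422521, plus strand), a sialic acid binding lectin known from myeloid cells and osteoclasts, was at 12.7 and 17.8 CPM in ABTr1, 22.4 and 23.3 in ABTr2, 12.1 and 37.3 in ABTr3, 15.8 and 22.5 in ABTr4, against 0.669 and 0.0774 CPM in parental PEO1. All 8 clone libraries were above both parental ones, and the log2 fold change was 5.64 (SE 0.80), 50-fold higher. It was 4.90 when PEO1 replicate 2 was left out and 7.92 when PEO1 replicate 1 was. The noncoding RNA LINC00669 was at 1.12 (SE 0.41), with 3.06 to 10.4 CPM over the 8 clone libraries and 2.13 and 3.25 CPM in parental PEO1. It was called higher with the replicate block (1.09) and not without it. CCBE1, a secreted protein needed for lymphatic vessel growth, was at 53.1 to 92.1 CPM over the 8 clone libraries and 6.93 and 96 CPM in parental PEO1, with a log2 fold change of 0.54 (SE 0.70). Leaving out a parental library gave 3.39 for replicate 1 and -0.37 for replicate 2. C18orf25, which encodes a relative of the ubiquitin ligase Arkadia, lies on the same strand beyond the end of SIGLEC15 and went the other way, at 24.4 and 24.5 CPM in ABTr1, 28.5 and 24.1 in ABTr2, 28.3 and 23.2 in ABTr3, 31.4 and 25.1 in ABTr4, against 140.3 and 99.2 CPM in parental PEO1. Its log2 fold change was -2.19 (SE 0.18), with no overlap between the groups.

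Further members called lower in each of the 4 clones belong to diverse functions and were listed after their values were seen. The log2 fold changes were -1.93 for ZCCHC2, -1.80 for ZADH2, -1.69 for CTIF, a translation factor that works with the nuclear cap-binding complex, and -1.69 for DYM, a Golgi protein. They were -1.48 for KIAA1468, -1.45 for ZNF236, -1.36 for PQLC1 and -1.36 for TMX3, a thiol oxidoreductase of the endoplasmic reticulum. IER3IP1, also of the endoplasmic reticulum, was at -1.33 and MBD1, another reader of methylated DNA, at -1.13. The 71 members without enough reads included 14 microRNAs and 30 protein-coding genes, and 41 members had 0 reads in every library.

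**Figure D5:**
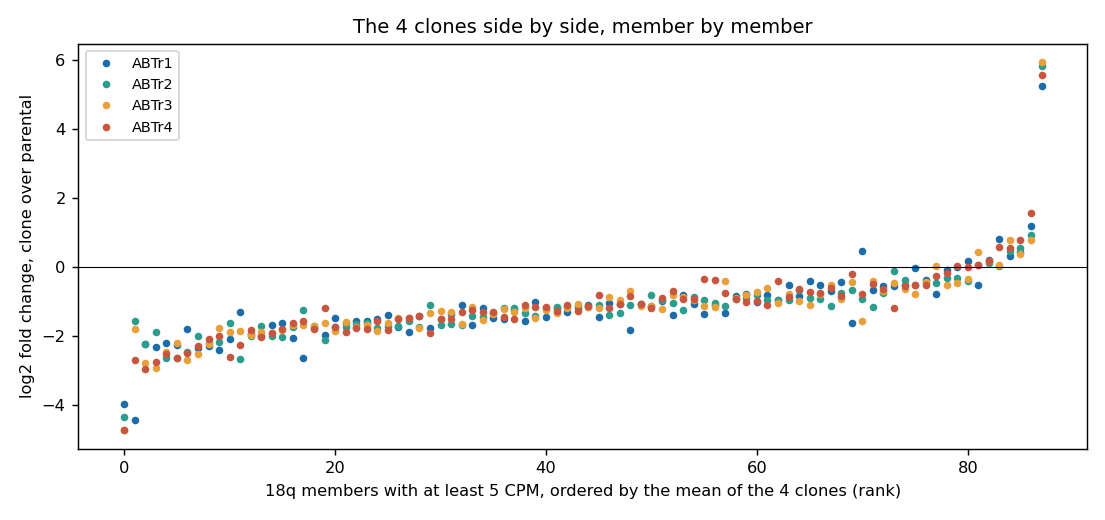
Log2 fold change over parental PEO1 (vertical axis) in each clone for the 88 members with at least 5 CPM, ordered by the mean of the 4 clones (rank on the horizontal axis). Each color is 1 clone. The 4 points of a member mostly lie close together, with a median SD of 0.193 over the clones, and the widest spread is that of LIPG, next to the left end, with ABTr1 lowest.

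Whether the clones differed from each other in these genes was tested without the parental libraries in the contrast. The stretch was picked as lower in all 4 clones, so each clone's own level entered the choice and closeness of the clones is not independent of it. Over the 88 members with at least 5 CPM the SD of the log2 fold change over the 4 clones had a median of 0.193, against 0.233 for other genes of that level. At an edgeR adjusted p under 0.05, 0 of 126 members differed among the clones, where 0.00606% of all genes did. At an unadjusted p under 0.05 there were 7 members, a share near that of all genes (5.30%). DESeq2 called 3 members (all genes 1.79%), limma-voom 0 and the fit with a replicate block 1 (all genes 0.843%). Calls that miss the threshold do not show that the clones were alike.

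Each clone was also tested against the mean of the other 3. The edgeR count was 0 of 126 members for all 4 clones, where it was 0.0121% of all genes for ABTr1 and 0 for the others. At an unadjusted p under 0.05 it was 11 for ABTr1 (all genes 8.27%), 3 for ABTr2 (3.00%), 1 for ABTr3 (4.07%) and 7 for ABTr4 (5.23%). With the replicate block 4 members were called for ABTr1 (2.97%) and 0 for each of the other 3 clones. DESeq2 called 3 members for ABTr1 (1.14%), 4 for ABTr4 (1.06%) and 0 for ABTr2 and ABTr3. The members so called are named here after their values were seen.

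LIPG was at 0.990 and 0.738 CPM in ABTr1, 10.2 and 2.61 in ABTr2, 6.41 and 4.52 in ABTr3, 3.83 and 1.94 in ABTr4, against 26.5 and 11 CPM in parental PEO1. Its ABTr1 libraries were below those of the other clones, with a log2 difference of ABTr1 from the other 3 clones of -2.35 with the replicate block (edgeR adjusted p = 0.021, with 0.0090 to 0.44 over edgeR without the block, limma-voom and DESeq2). DCC was at 3.48 and 2.06 CPM in ABTr1, 0.818 and 1.64 in ABTr2, 0.402 and 0.295 in ABTr3, 0.559 and 0.985 in ABTr4, against 0.223 and 0.155 CPM in parental PEO1. It was highest in ABTr1, with a log2 difference of 2.02 with the replicate block (edgeR adjusted p = 0.039, with 0.014 to 0.34 over the other tools). The block also called SEC11C, a subunit of the signal peptidase, lower in ABTr1 (-0.94, edgeR adjusted p = 0.039, and 0.082 to 0.45 over the others) and ZNF516, a zinc finger protein, higher (1.03, edgeR adjusted p = 0.037, and 0.38 to 0.54 over the others). In the fit without the block none of these 4 passed.

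In ABTr4 the neighbours C18orf21 and RPRD1A had log2 fold changes nearer 0 than in the other clones. RPRD1A, which binds the tail of RNA polymerase II, was at 72.9 and 86.5 CPM in ABTr1, 83.2 and 84.3 in ABTr2, 64.4 and 91.5 in ABTr3, 140.0 and 127 in ABTr4, against 167 and 176 CPM in parental PEO1. The ABTr4 libraries lay between the other clones and parental PEO1, and by clone the log2 fold change was -1.10 in ABTr1, -1.03 in ABTr2, -1.14 in ABTr3 and -0.36 in ABTr4. C18orf21 was at 7.75 and 8.27 CPM in ABTr1, 9.38 and 12 in ABTr2, 8.77 and 10.3 in ABTr3, 15.7 and 16.8 in ABTr4, against 21.9 and 19.3 CPM in parental PEO1, in the same order. The log2 difference of ABTr4 from the other 3 clones was 0.74 for RPRD1A (DESeq2 adjusted p = 0.049) and 0.81 for C18orf21 (DESeq2 adjusted p = 0.017), and neither passed with edgeR or limma-voom. Their edgeR adjusted p was 0.58 for RPRD1A and 0.57 for C18orf21, and 0.071 and 0.090 with the replicate block. DESeq2 further called CCDC68 lower in ABTr4 (-0.80, adjusted p = 0.044, against 0.11 to 0.72 with edgeR and limma-voom) and RNF165, a gene of at most 2.16 CPM in any library with 0 reads in ABTr4. For ABTr1 it called INO80C, a subunit of a chromatin remodeller, lower (-1.21, DESeq2 adjusted p = 0.025, against 0.063 to 0.44 with the others).

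Genes of the SMAD pathway on other chromosomes moved in both directions, and these were tested. Of 23 receptor and regulator genes, 3 rose and 3 fell in the mean of the clones at an edgeR adjusted p under 0.05, where 7.17% and 8.79% of all genes did. TGFBR2, the receptor that binds the ligand, was at 253 ± 84.9 CPM in the clones and 89.1 ± 4.17 CPM in parental PEO1, a log2 fold change of 1.45 (SE 0.22, adjusted p = 0.0034 by edgeR). TGFBR1, its partner, rose by 0.89 (SE 0.20, adjusted p = 0.02 by edgeR). BAMBI, a decoy receptor, was at 9.08 and 7.69 CPM in ABTr1, 40.7 and 14.2 in ABTr2, 33 and 11.6 in ABTr3, 10.1 and 9.27 in ABTr4, against 30.2 and 108 CPM in parental PEO1. Its log2 fold change was -2.21 (SE 0.49, adjusted p = 0.018 by edgeR), the groups overlapped, and without PEO1 replicate 2 it was -1.02 and did not pass. LEMD3, a nuclear membrane protein that binds SMADs, fell by 0.97 on the log2 scale (SE 0.24, adjusted p = 0.028 by edgeR). The remaining calls, named after their values were seen, were SMAD3 and SMAD1. SMAD3 was at 1.01 (SE 0.29, adjusted p = 0.045 by edgeR) and SMAD1 at -0.82 (SE 0.23, adjusted p = 0.046 by edgeR). SMAD3, the closest relative of SMAD2, was higher where SMAD2 was lower. It was at 397 ± 83.5 CPM in the clones and 194 ± 85.2 CPM in parental PEO1, whose libraries were at 254 and 134 CPM.

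Of 17 tested target genes 2 rose and 4 fell (all genes 7.17% and 8.79%). ITGB6, an integrin subunit of epithelial cells, was at 9.25 and 1.51 CPM in ABTr1, 6.11 and 5.80 in ABTr2, 5.53 and 9.04 in ABTr3, 1.08 and 3.08 in ABTr4, against 107 and 133 CPM in parental PEO1. It was lower in all 8 clone libraries, with a log2 fold change of -4.68 (SE 0.49, adjusted p = 7.4e-04 by edgeR). PMEPA1, an inhibitor of the pathway that is induced by it, was at -2.42 (SE 0.40, adjusted p = 0.0051 by edgeR) and JUNB, an AP-1 factor, at -1.72 (SE 0.39, adjusted p = 0.019 by edgeR). TGFB1, the ligand, rose to 40.2 ± 6.88 CPM in the clones, against 9.23 ± 5.39 CPM in parental PEO1, a log2 fold change of 2.10 (SE 0.39, adjusted p = 0.0093 by edgeR). The other calls, named after their values were seen, were SNAI2 (2.47, adjusted p = 0.046 by edgeR) and LTBP2 (-1.25, adjusted p = 0.041 by edgeR). LTBP2 was at 33.8 and 29.7 CPM in ABTr1, against 45.7 and 14.5 CPM in parental PEO1, so its groups overlapped. By clone its log2 fold change was 0.075 in ABTr1, -1.48 in ABTr2, -2.12 in ABTr3 and -1.48 in ABTr4. Over the receptor, regulator and target genes together 12 were called (all genes 7.17% higher and 8.79% lower). Fewer were called in every fit with 1 library left out, the fewest without PEO1 replicate 2. With the replicate block 21 were called, and the shares of all genes also went up, to 16.3% higher and 18.2% lower. Of the receptors and regulators 4 were then called higher and 8 lower, and of the targets 5 higher and 4 lower.

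Of 16 partners of TCF4 among the helix-loop-helix and ID genes, 9 were tested, and 2 rose and 1 fell (all genes 7.17% and 8.79%). MSC, a helix-loop-helix repressor, was at 2.74 (SE 0.61, adjusted p = 0.018 by edgeR), with 1.35 ± 0.391 CPM in the clones and 0.189 ± 0.0484 CPM in parental PEO1. TWIST1, a factor of mesenchymal cells, was at 1.20 (SE 0.35, adjusted p = 0.047 by edgeR) and ID4, an inhibitor of helix-loop-helix factors, at -1.23 (SE 0.35, adjusted p = 0.049 by edgeR). ID4 ranged over the clones, at -0.55 in ABTr1, 0.19 in ABTr2, -1.15 in ABTr3 and -3.39 in ABTr4. Fewer were called in every fit with 1 library left out. With the replicate block 5 were called (all genes 16.3% higher and 18.2% lower).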

How the data were processed

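The 10 libraries are 2 of each of 4 clones and 2 of parental PEO1. The deposited file holds counts per gene as the authors made them; the submitters' processing notes name TopHat2 2.0.14, featureCounts 1.4.6, Subread and the build hg19. The strand setting is not given in the sources used here, so overlapping and antisense genes are uncertain; 14 tested members share exon positions with another gene, among them ZNF397 and ZSCAN30, FHOD3 and TPGS2, MYO5B, ATP8B1 and MALT1. The design text names 15 samples and 3 independent experiments, 10 libraries were analysed here, and the labels tie no replicate number to an experiment. P-values therefore measure only the spread between these libraries, which may be technical.

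Genes were filtered with filterByExpr of edgeR 4.0.16, which kept 16490, scaled with TMM and fitted with a mean per group over all libraries (quasi-likelihood test, 5 residual degrees of freedom, Benjamini-Hochberg adjustment over all genes, called at an adjusted p under 0.05). CPM values use TMM-scaled totals. SE is the log2 fold change divided by the root of F. A member tested only because parental cells passed the filter had to be lower in the clones, so counts over tested members support nothing by themselves. The members, the gene lists, the role groups and the rule for naming genes (the SMADs and TCF4, the 10 lowest and 6 highest of at least 5 CPM, up to 4 per role group by level, 3 on each side of the limit, up to 4 per list elsewhere by adjusted p) were chosen with earlier results of these data known. The lists of genes elsewhere came from general knowledge.

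In all 10 pairs of groups, libraries of equal replicate number deviated together (correlations of 0.348 to 0.808, above the threshold of 0.1), so another fit took that number as a block. Other alternatives were DESeq2 1.42.0, limma-voom (limma 3.58.1), RLE factors, no filter, only the compared groups, members with at least 5 CPM and each library left out. Leaving out members with exon overlap was added after seeing the data. Counts per role group and the shares of all genes with DESeq2 and with only the compared groups were computed after seeing the data. Simulated data were used to check that the fit runs as meant. They had less spread than these libraries and no shared effect of replicate number, so nothing is read from them about the calls here. Promoters came from RefSeq tables on GRCh38.p14, matched by symbol, and file coordinates are hg19. Software was R 4.3.3 with Python 3.11.15 and, for plots, matplotlib 3.10.9.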

Additional observations from a re-analysis of the deposited data

How the results depend on the processing

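The 2 libraries per group limit the precision of all comparisons, and members below 5 CPM rest on few reads. Members called lower with only the groups compared in the fit were 25 in ABTr1 (all genes 1.88%) and 1 in ABTr2 (0.345%). They were 18 in ABTr3 (2.46%) and 15 in ABTr4 (1.83%). With the replicate block 67 were called lower in ABTr2 (10.8%) and 65 in ABTr4 (13.9%). The block called 1 member among the clones (0.843%) and 4 for ABTr1 against the others (2.97%). DESeq2 called 3 among the clones (1.79%), 3 for ABTr1 (1.14%) and 4 for ABTr4 (1.06%) against the others. The median over members with at least 5 CPM was -1.14. The block called 21 SMAD pathway genes elsewhere and 5 partners of TCF4 (all genes 16.3% higher and 18.2% lower). DESeq2 called 5 partners, and the share of all genes for that count is not given here. The block is the pairing by replicate number. Shares of all genes are also not given for the counts with 1 library left out, and nothing is read from those counts. With 1 library left out, the counts called were 39 to 63 for the mean, 3 to 47 for ABTr1, 11 to 28 for ABTr2, 4 to 39 for ABTr3, 9 to 42 for ABTr4, 4 to 11 for SMAD pathway genes and 1 to 2 for partners, the median was -1.02 to -0.90, and among the clones 0 were called in each case.

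Single genes changed sign as follows. SERPINB8 was at -0.017 with no filter and, with 1 library left out, between -0.38 and 0.52, below 0 without PEO1 replicate 2 (-0.38) and without replicate 1 of ABTr1 (-0.014), ABTr2 (-0.22), ABTr3 (-0.014) or ABTr4 (-0.14). FHOD3 ranged between -0.53 (without PEO1 replicate 2) and 1.60 (without PEO1 replicate 1), with -0.20 without ABTr2 replicate 1 and -0.049 without ABTr4 replicate 1. Without PEO1 replicate 2 and without PEO1 replicate 1, CCBE1 was at -0.37 and 3.39, TCF4 at -1.41 and 0.39, MALT1 at -0.93 and 0.030, and SERPINB7 at -2.58 and 0.24. The parental replicates of these genes differed, and the cause was not tested. Over the named genes and their alternatives, 760 values kept direction and side of the threshold, 20 passed it newly, 62 no longer passed and 13 changed sign.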
